A study of Mus musculus with 12 samples.

Results

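Transcripts of 9 genes that make or use nicotinamide adenine dinucleotide (NAD) were followed in whole inguinal white adipose tissue (iWAT) of mice. The 9 genes, Nampt, Nnmt, Nmnat1, Nmnat3, Naprt, Sirt1, Sirt3, Parp1 and Cd38, were chosen by name, with earlier results of these data known. All 9 were among the 14159 genes listed in the deposited table. Polyadenylated RNA was sequenced from Atf4WT and Atf4AKO mice kept at room temperature (RT) or exposed to cold for 24 h, with 3 libraries in each of the 4 groups. Atf4AKO mice carried a floxed Atf4 allele and Cre under the Adipoq promoter, which is active in adipocytes, so that the transcription factor ATF4 was deleted in those cells and not in the other cells of the tissue. Atf4WT mice were floxed littermates without Cre, and all mice were on a C57BL/6 background. The libraries are labelled as biological replicates, and whether each came from a single mouse is not given in the sources used here. The comparisons ask whether cold changed these genes in either genotype, and whether loss of ATF4 in adipocytes changed them.

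NAD carries electrons in metabolism and is also a substrate that some enzymes break down, so that cells must keep making it. Most of it is remade from nicotinamide: NAMPT forms nicotinamide mononucleotide, and the NMNAT enzymes turn that into NAD, NMNAT1 in the nucleus and NMNAT3 in mitochondria. NAPRT starts a separate route from nicotinic acid, and NNMT methylates nicotinamide and so takes it out of the cycle. Among the enzymes that use NAD, SIRT1 is a mainly nuclear deacetylase, SIRT3 a mitochondrial deacetylase, PARP1 a DNA damage sensor that builds ADP-ribose chains, and CD38 a membrane glycohydrolase found on many immune cells. Transcripts were measured here, and neither NAD nor any enzyme's activity was.

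Values are normalized counts, reads per gene divided by a factor for each library, and total depth was between 25719476 and 29105147 reads. Atf4 itself had 5669, 4670 and 4107 normalized counts in Atf4WT and 1594, 1470 and 1639 in Atf4AKO iWAT at RT, and 7644, 7511 and 5756 against 1578, 788 and 1180 after cold. Every Atf4AKO library was thus below every Atf4WT library. The libraries also differed in what other cells they held. The summed counts of 4 listed skeletal muscle markers were 71116 in Atf4WT RT replicate 2 and 25612 in Atf4WT cold replicate 0, and between 65.9 and 2681 in the other 10 libraries. The sum of 11 listed B cell markers was between 4235 and 14688 in Atf4WT cold, between 92.97 and 398.6 in Atf4AKO cold, and between 160 and 675 at RT except for 4297 in Atf4WT RT replicate 2. Macrophage markers were lowest in Atf4AKO cold replicate 1, at 6189 against 15102 to 49395 in the other libraries. Markers of adipocytes, the labelled tissue's main cell, were high in all 12 libraries, with sums between 731012 and 1238461.

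The genes lie apart from each other on 8 chromosomes of the mouse genome (GRCm38, GENCODE positions). Nampt (NM_021524 in the table) is at chr12:32819545-32853349, Nmnat1 (NM_133435) at chr4:149467572-149485202, Naprt (NM_172607) at chr15:75890956-75894481, and Sirt3 (NM_022433) at chr7:140863666-140882309. Nnmt (NM_001311062) is at chr9:48591877-48605153 and Nmnat3 (NM_001357449) at chr9:98287435-98420438. Sirt1 (NM_019812) is at chr10:63319005-63381704, Parp1 (NM_007415) at chr1:180568924-180601254, and Cd38 (NM_007646) at chr5:43868553-43912375. Whether the counting used the strand of the reads is not given in the sources used here, which bears on genes that overlap a neighbour on the opposite strand.

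Per kilobase of the listed transcript, which could be set for 8 of the 9 genes (all but Nmnat3), the order of levels was led by Nnmt and Nampt in all 4 groups. In Atf4WT iWAT at RT, Nnmt had a mean of 7754 normalized counts per kilobase and Nampt 1271. Sirt3 followed with 504, Parp1 with 407, Naprt with 363, Nmnat1 with 285, Cd38 with 221 and Sirt1 with 172. The ranges of Parp1 and Naprt overlapped there, as did those of Cd38 and Sirt1, and the other neighbours in the order were apart. After cold, Nmnat1 stood above Naprt in both genotypes, and in Atf4AKO iWAT its mean of 448 per kilobase was above the 397 of Parp1, with overlapping ranges. Sirt1 had the lowest mean in every group, between 157 and 172 per kilobase.

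**Figure D1:**
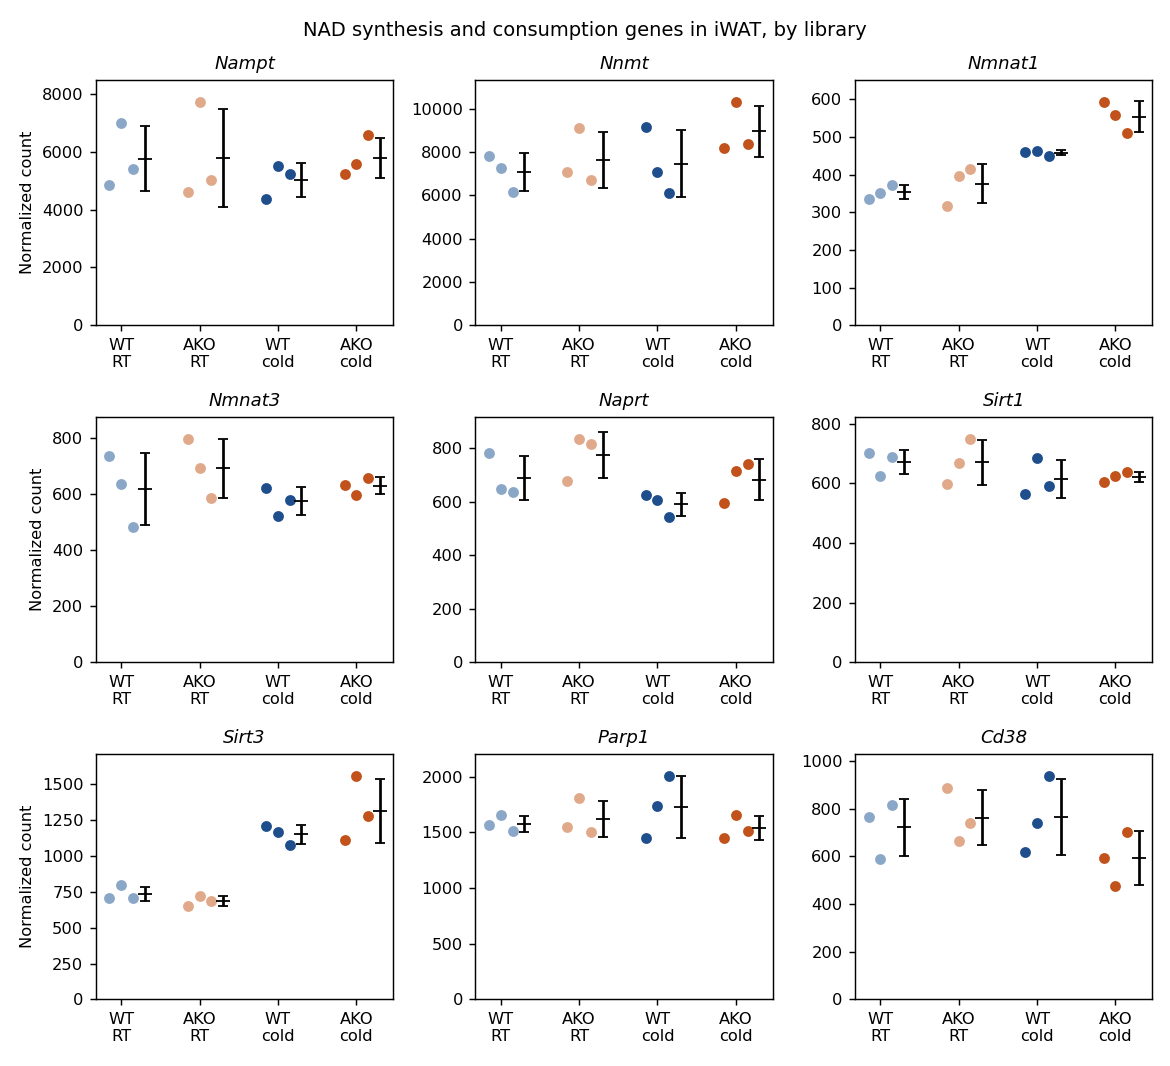
Normalized counts (vertical axes, each starting at 0) of the 9 genes in the 4 groups, with one point per library in the order of replicates 0, 1 and 2, and the mean with its SD (n = 3) as a black bar beside them. Sirt3 and Nmnat1 were above their RT range in every cold library of the same genotype, while the groups overlapped for most of the other genes.

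Cold raised 2 of the 9 genes, Sirt3 and Nmnat1, and did so in both genotypes. A gene is called here when its adjusted p was under 0.05 in limma's moderated test on log2(normalized count + 1), with Benjamini-Hochberg adjustment over all 13404 tested genes. These p-values measure the spread between the libraries of a group, which may be technical in part. Fold changes are on the scale of log2(normalized count + 1). In Atf4WT, 2 of the 9 genes were called, beside 31.9% of all tested genes, and in Atf4AKO 2 of 9, beside 25.9%. Called and higher were 2 of 9 in each genotype, beside 17.0% of tested genes in Atf4WT and 14.8% in Atf4AKO. Scaling all libraries to the same 75th percentile changed the split in Atf4AKO from 1988 higher of 3467 called genes to 1715 of 3690, and left Sirt3 and Nmnat1 called and higher. The number of calls is therefore close to that among all genes and says nothing particular about the 9 genes as a group. The median log2 fold change of the 9 was 0.06 in Atf4WT and -0.07 in Atf4AKO, and that of all tested genes was 0.00 and -0.03.

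Sirt3, the mitochondrial deacetylase, changed most. In Atf4WT iWAT it had 706, 794 and 708 normalized counts at RT and 1206, 1167 and 1074 after cold. In Atf4AKO iWAT it had 652, 718 and 687 at RT and 1113, 1554 and 1276 after cold. The cold libraries lay above the RT libraries in both genotypes, without overlap. Sirt3 rose 1.56-fold in Atf4WT (log2 fold change 0.64 ± 0.12 SE, adjusted p = 0.00225, limma) and 1.90-fold in Atf4AKO (0.93 ± 0.12 SE, adjusted p = 0.000364, limma). It stayed called in all 22 alternative fits of either comparison, and without the libraries rich in muscle RNA the rise in Atf4WT was 0.62 (without RT replicate 2) and 0.61 (without cold replicate 0). Under the threshold used by the study, which asks for an unadjusted p under 0.05 and more than 1.5-fold change, Sirt3 was the only one of the 9 genes to pass, in both genotypes. That threshold was applied here to the limma fit, where the study used DESeq2. It passed 21.2% of tested genes in Atf4WT and 17.2% in Atf4AKO.

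By their outermost annotated ends, Sirt3 overlaps Psmd13, a proteasome subunit gene, by 342 bases and Ric8a by 707 bases, both on the opposite strand. Psmd13 did not pass the test for cold, with log2 fold changes of 0.26 in Atf4WT (adjusted p = 0.0916) and 0.19 in Atf4AKO (adjusted p = 0.216, limma). Ric8a, a chaperone of G protein subunits, fell by 0.28 in Atf4WT and by 0.34 in Atf4AKO on the log2 scale (adjusted p = 0.0171 and 0.00832, limma); the first was not called without Atf4WT RT replicate 0 or without Atf4WT cold replicate 2, where the adjusted p was at most 0.0665. Psmd13 was called in 3 of 22 alternative fits in Atf4WT and in none in Atf4AKO.

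Nmnat1, the nuclear enzyme of the last step to NAD, rose less. In Atf4WT iWAT it had 336, 350 and 373 normalized counts at RT and 461, 463 and 450 after cold. In Atf4AKO iWAT it had 317, 397 and 415 at RT and 593, 559 and 511 after cold. Again no cold library overlapped the RT libraries of its genotype. The rise was 1.30-fold in Atf4WT (log2 fold change 0.38 ± 0.11 SE, adjusted p = 0.0281, limma) and 1.48-fold in Atf4AKO (0.57 ± 0.11 SE, adjusted p = 0.00509, limma). The call in Atf4AKO held in all 22 alternative fits. The call in Atf4WT rested on each of 5 libraries: without Atf4WT RT replicate 0 or 1 the adjusted p was 0.0901 or 0.0743, and without Atf4WT cold replicate 0, 1 or 2 it was 0.0634, 0.0747 or 0.0558, while the log2 fold change stayed between 0.34 and 0.42. Nmnat1 overlaps Tmem274 on the opposite strand over 6172 bases, and Tmem274 is not among the listed genes.

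The annotated start of Nmnat1 is 27 bases from that of Lzic, a gene on the opposite strand, and Lzic also rose with cold. Lzic had 731, 722 and 712 normalized counts in Atf4WT at RT and 1180, 1114 and 1010 after cold, and in Atf4AKO 794, 811 and 756 at RT and 1313, 1161 and 1309 after cold. Its rise was 0.61 in Atf4WT and 0.68 in Atf4AKO on the log2 scale (adjusted p = 0.000537 and 0.000341, limma). Lzic was named after its values were seen, because of its place beside Nmnat1. Pearson's r of the pair was 0.89 over the 12 libraries. Within groups the pair did not vary together (r = -0.10 over deviations from group means, a description only). Opposite-strand starts within 1000 bases were also those of Psmd13, 341 bases from Sirt3, and Dnajc12, 739 bases from Sirt1. Dnajc12 had 157, 175 and 159 normalized counts in Atf4WT at RT and 83.2, 90.8 and 90.4 after cold. In Atf4AKO it had 119, 155 and 156 at RT and 96.7, 105 and 92.4 after cold, while Sirt1 did not pass in either genotype.

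The other genes of NAD supply did not pass the test for cold in either genotype. Nampt, the main entry to salvage, had 4850, 7012 and 5403 normalized counts in Atf4WT at RT and 4355, 5495 and 5241 after cold. In Atf4AKO it had 4623, 7725 and 5028 at RT and 5226, 5576 and 6574 after cold, so the RT libraries alone spanned the cold values in Atf4WT but for the lowest. Its log2 fold change was -0.18 in Atf4WT (95% interval -0.61 to 0.24) and 0.03 in Atf4AKO (-0.40 to 0.46). A rise of 0.38, that of Nmnat1 in Atf4WT, lay outside the interval of Nampt in Atf4WT and inside that in Atf4AKO, and a rise of 0.57, that of Nmnat1 in Atf4AKO, lay outside both.

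Nmnat3, the mitochondrial counterpart of Nmnat1, had 735, 638 and 483 normalized counts in Atf4WT at RT and 623, 522 and 581 after cold. In Atf4AKO it had 797, 695 and 585 at RT and 635, 597 and 660 after cold. Its groups overlapped throughout, and its log2 fold changes were -0.09 (95% interval -0.43 to 0.26) and -0.12 (-0.47 to 0.22). Nmnat1 and Nmnat3, which make NAD by the same reaction in different compartments, thus differed in that only the first passed the test. The difference between them was not tested. Nmnat2, another gene of this family from the pathway lists, had low counts, between 7.94 and 36.6. It was lower after cold without overlap in both genotypes, beside 46.8% and 41.7% of tested genes. Its log2 fold changes of -0.71 ± 0.34 SE in Atf4WT and -0.97 ± 0.34 SE in Atf4AKO did not pass (adjusted p = 0.134 and 0.0572, limma). The second was called in 2 of 21 alternative fits and passed the study's threshold, as did 17.2% of tested genes.

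Naprt, whose product starts the Preiss-Handler route from nicotinic acid, had 783, 647 and 638 normalized counts in Atf4WT at RT and 625, 606 and 542 after cold. Those ranges did not overlap, as was the case for 3 of the 9 genes in Atf4WT (Nmnat1, Naprt and Sirt3) and 46.8% of all tested genes. In Atf4AKO Naprt had 677, 833 and 815 at RT and 595, 713 and 739 after cold, which overlapped; 2 of the 9 genes (Nmnat1 and Sirt3) did not overlap there, beside 41.7% of tested genes. Its log2 fold changes of -0.22 ± 0.12 SE and -0.18 ± 0.12 SE did not pass (adjusted p = 0.205 and 0.302, limma). Naprt overlaps Eef1d, an elongation factor gene on the same strand, by 277 bases.

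Nnmt, the methyltransferase that removes nicotinamide, was the most abundant of the 9 and did not pass either test. It had 7815, 7267 and 6132 normalized counts in Atf4WT at RT and 9163, 7069 and 6124 after cold. In Atf4AKO it had 7087, 9125 and 6716 at RT and 8192, 10306 and 8360 after cold. The ranges overlapped in both genotypes, with log2 fold changes of 0.06 (95% interval -0.31 to 0.43) and 0.23 (-0.13 to 0.60).

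Of the remaining genes whose products use NAD, none passed the test for cold. Sirt1 had 702, 624 and 688 normalized counts in Atf4WT at RT and 564, 685 and 590 after cold, and 597, 668 and 748 against 604, 625 and 637 in Atf4AKO. Its log2 fold changes were -0.13 (95% interval -0.37 to 0.10) and -0.10 (-0.34 to 0.13), so a rise of the size of Sirt3 lay outside both intervals. Parp1 had 1563, 1653 and 1509 normalized counts in Atf4WT at RT and 1447, 1735 and 2003 after cold, and 1544, 1804 and 1504 against 1446, 1653 and 1515 in Atf4AKO. Its log2 fold changes were 0.12 (-0.13 to 0.38) and -0.07 (-0.33 to 0.19), again below the rise of Sirt3.

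Cd38 did not pass the test for cold either, and its estimates in the genotypes lay furthest apart among the 9 genes. It had 765, 587 and 813 normalized counts in Atf4WT at RT and 619, 740 and 935 after cold. In Atf4AKO it had 886, 662 and 738 at RT and 594, 476 and 703 after cold. The log2 fold change with cold was 0.08 ± 0.19 SE in Atf4WT and -0.37 ± 0.19 SE in Atf4AKO (adjusted p = 0.790 and 0.176, limma), with overlapping groups in both. Its lowest value, 476, was in Atf4AKO cold replicate 1, the library with the lowest sum of macrophage markers (6189), and its highest, 935, in Atf4WT cold replicate 2, the library with the highest sum of B cell markers (14688). Other libraries did not follow the B cell sum. The 886 of Atf4AKO RT replicate 0 came with a B cell sum of 675 and the highest macrophage sum (49395). The 619 of Atf4WT cold replicate 0 came with a B cell sum of 4235. The part of these cells in the values of Cd38 was not tested, and in bulk tissue fewer cells of a type and less RNA per cell cannot be told apart.

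**Figure D2:**
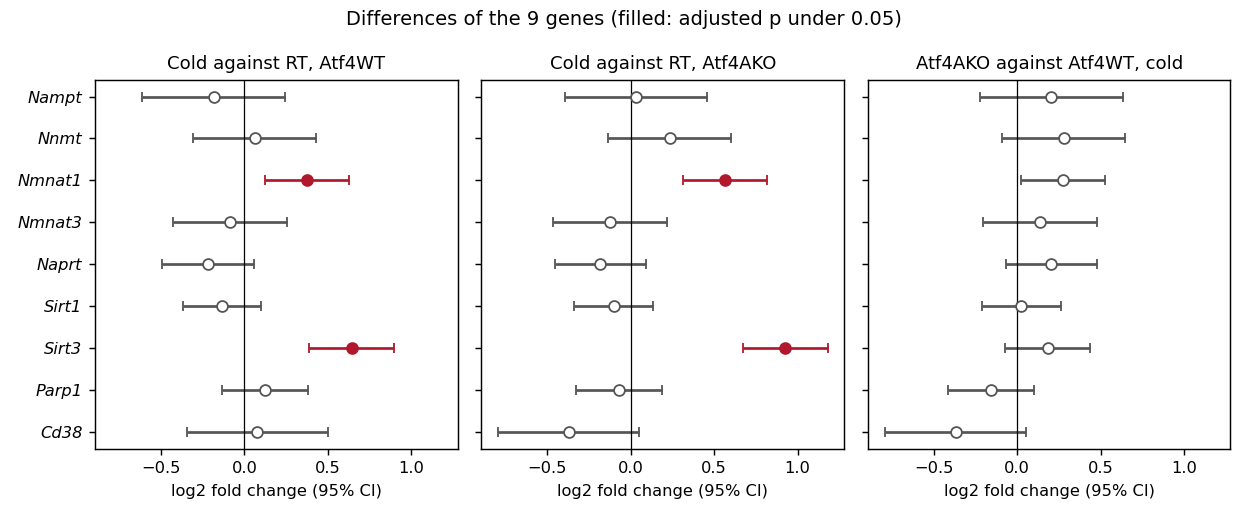
Log2 fold changes of the 9 genes (points) with 95% confidence intervals (bars) for cold against RT in Atf4WT, cold against RT in Atf4AKO, and Atf4AKO against Atf4WT after cold; filled red points are genes with an adjusted p under 0.05 in limma's moderated test. Sirt3 (0.64 and 0.93) and Nmnat1 (0.38 and 0.57) are filled in both cold panels, and no point is filled in the panel of genotypes.

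Loss of ATF4 in adipocytes changed none of the 9 genes past the threshold. After cold, 0 of 9 were called by limma, beside 0.0298% of all tested genes (4 genes, one of them Atf4), and edgeR and DESeq2 on the recovered reads also called 0 of 9. One gene, Nmnat1, had an unadjusted p under 0.05. It had 593, 559 and 511 normalized counts in Atf4AKO cold and 461, 463 and 450 in Atf4WT cold, and was the only one of the 9 whose groups did not overlap, beside 16.5% of tested genes. Its log2 difference was 0.27 ± 0.11 SE (95% interval 0.02 to 0.52, adjusted p = 0.371, limma). Cd38 was -0.37 ± 0.19 SE (adjusted p = 0.495, limma), Nnmt 0.28 ± 0.17 SE, Nampt and Naprt 0.20 each, and Sirt3 0.18 ± 0.12 SE, with groups that overlapped. All 10 adipocyte markers were also higher in Atf4AKO than in Atf4WT after cold, with a median log2 difference of 0.21 and none called. Of all tested genes 59.3% were higher, with a median of 0.046, or 0.0019 after scaling to the same 75th percentile. The part of the adipocyte markers in the differences of the 9 genes was not tested. No member passed the study's threshold in this comparison, which 6.4% of tested genes passed.

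At RT, 0 of 9 genes were called by limma, beside 0.00746% of tested genes (1 gene), and 0 of 9 by edgeR and DESeq2. None had an unadjusted p under 0.05, and the log2 differences ran from -0.10 for Sirt3 to 0.17 for Nmnat3. The difference of the cold responses between genotypes was tested directly, and again 0 of 9 were called by limma, edgeR or DESeq2, beside 0.0% of tested genes in limma (0 genes, with 928 at an unadjusted p under 0.05, and 0 by edgeR and 132 by DESeq2), and none of the 9 had an unadjusted p under 0.05. For Sirt3 the response was larger in Atf4AKO by 0.28 (95% interval -0.07 to 0.64), for Nmnat1 by 0.19 (-0.17 to 0.55), and for Cd38 it was lower by 0.45 (log2 difference -0.45, interval -1.05 to 0.15). These intervals are wide, and a difference of 0.38, the cold response of Nmnat1 in Atf4WT, lay inside those of Sirt3 and Nmnat1.

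Promoter windows, 250 bases before to 50 bases after a gene's start, were given for 7 of the 9 genes (9 windows, RefSeq, GRCm38.p6). They were read for letters that ATF4 and related factors are known to bind, and also for the E-box, which is not one of these. Both strands were searched, and TGACG is part of the longer TGACGTCA. The windows of Nampt, Nmnat3, Sirt1 and Cd38, and window 2 of Sirt3, which holds no core, lie wholly inside the GENCODE spans given above. Those spans begin farther upstream, so these windows do not describe their outermost starts. The full cAMP response element TGACGTCA was in none of the 9 windows (1.79% of all 32851 mouse windows), and the composite ATF4 element TGATGNAA was in none (3.97% of all windows). The short core TGACG was in 3 windows, of Nampt, Sirt1 and Sirt3, and in 20.8% of all windows. The E-box CACGTG was in the windows of Sirt1 and Parp1, and in 7.15% of all windows. The stretches of 30 bases around each match are printed with the matched letters in capitals and each read 5′ to 3′ along its gene. Stretches labelled as E-box alone hold no match to the other motifs. In Sirt3 the core is on the other strand and reads CGTCA.
Nampt, core, chr12:32820188-32820217, plus strand: cacgcgctggggTGACGgtcggctttaggc
Sirt3, core, chr7:140882314-140882343, minus strand: acgggttgcggtCGTCAaggtaaccgcgtt
Sirt1, E-box, chr10:63339133-63339162, minus strand: gcggcgcccggcCACGTGacccggcgtgtt
Sirt1, E-box overlapping a core, chr10:63339059-63339088, minus strand: aggggcgggtCACGTGACGgggtttaaatc
Parp1, E-box, chr1:180568830-180568859, plus strand: acctcccaaggaCACGTGctgaagccccgc

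Of the 3 genes with the core, Sirt3 rose with cold while Nampt and Sirt1 did not pass, and none of the 3 was called between genotypes. Nmnat1, the other gene that rose, held none of the 4 motifs in either of its windows. A match is a string of letters and not a bound site, and the absence of one says only that these letters are not in this window.

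The other genes of NAD metabolism were taken from 9 lists of 50 genes, of which 44 were in the table and 43 were tested. With cold, 13 of the 43 were called in Atf4WT (4 higher and 9 lower, 30.2% of the 43) and 8 in Atf4AKO (3 higher and 5 lower, 18.6%), close to or below the shares among all genes given above. With a minimum mean of 50 normalized counts, which leaves out Kynu, 12 of 38 were called in Atf4WT. The counts moved with single libraries. In Atf4WT they fell to 8 without RT replicate 0, to 9 without RT replicate 1 and to 8 without cold replicate 1. In Atf4AKO they fell to 4 without RT replicate 0 or cold replicate 1, and to 5 without RT replicate 1 or cold replicate 0. Scaling all libraries to the same 75th percentile gave 1 higher and 8 lower in Atf4AKO in place of 3 and 5. With only the 2 groups compared, 12 of the 43 were called in Atf4WT and 5 in Atf4AKO.

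Slc25a51, the carrier that brings NAD into mitochondria, had the clearest rise of the pathway. It had 5278, 5389 and 4527 normalized counts in Atf4WT at RT and 12277, 11157 and 11221 after cold, and 5360, 6813 and 5198 against 11893, 13371 and 14912 in Atf4AKO. Every cold library was above every RT library. The rise was 2.28-fold in Atf4WT (log2 fold change 1.19 ± 0.12 SE, adjusted p = 0.000106, limma) and 2.32-fold in Atf4AKO (1.21 ± 0.12 SE, adjusted p = 0.000109, limma), and both calls held in all 22 alternative fits. The genotypes did not differ past the threshold after cold (0.21 ± 0.12 SE, adjusted p = 0.554, limma).

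Among the 5 other sirtuins, 1 was called higher in each genotype, beside 17.0% of tested genes in Atf4WT and 14.8% in Atf4AKO. Sirt7, a nucleolar deacetylase, rose by 0.47 in Atf4WT and by 0.35 in Atf4AKO on the log2 scale (adjusted p = 0.00637 and 0.0298, limma). The call in Atf4AKO was lost without any one of Atf4AKO RT replicates 0 and 1 and Atf4AKO cold replicates 0 and 1, with an adjusted p of up to 0.104. It was also lost with the same 75th percentile (0.0908) and with only the 2 groups compared (0.0781). Sirt2, Sirt4, Sirt5 and Sirt6 did not pass, with log2 fold changes between -0.21 and 0.44 in Atf4WT. There the groups of Sirt2 (lower) and Sirt6 (higher) did not overlap, and they were called in 1 and 2 of 22 alternative fits. Sirt4 and Sirt5 are mitochondrial like Sirt3, and their changes in Atf4WT were 0.00 and -0.13, against 0.64 for Sirt3.

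Of 13 tested ADP-ribosyl transferases beside Parp1, 5 were called lower in Atf4WT, beside 14.9% of all tested genes, and 4 in Atf4AKO, beside 11.0%, and none was called higher. Parp8 had 137, 148 and 226 normalized counts in Atf4WT at RT and 244, 259 and 447 after cold, higher without overlap. Its log2 fold change of 0.87 ± 0.33 SE did not pass (adjusted p = 0.0655, limma), but passed in 6 of 22 alternative fits and under the study's threshold. In Atf4AKO that change was -0.0010. After cold, Parp8 differed between Atf4AKO and Atf4WT by -0.99 ± 0.33 SE, with overlapping groups (adjusted p = 0.224, limma). That difference passed the study's threshold, as did 6.4% of tested genes. The 447 was in Atf4WT cold replicate 2, the library with the highest B cell sum, and the part of these cells was not tested. Tiparp was at 0.37 ± 0.13 SE with cold in Atf4AKO, higher without overlap (adjusted p = 0.0674, limma), and was called in 3 of 22 alternative fits. Tnks, a tankyrase, fell by 0.83 in Atf4WT and by 0.53 in Atf4AKO. Parp9 and Parp14, which are linked to the interferon response, fell by 0.51 and 0.46 in Atf4WT and by 0.45 and 0.60 in Atf4AKO. Parp3 fell by 0.64 and by 0.34, and Parp12 fell by 0.38 in Atf4WT only past the threshold. Of these calls, those of Parp9 held in all alternative fits of both genotypes, and those of Tnks, Parp3 and Parp12 in all of Atf4WT. The call of Tnks in Atf4AKO was lost without Atf4AKO RT replicate 0 or Atf4AKO cold replicate 0 or 1 (adjusted p up to 0.0879, limma). That of Parp3 in Atf4AKO was lost without any Atf4AKO RT library or Atf4AKO cold replicate 1 or 2 (up to 0.123). That of Parp14 in Atf4WT was lost without Atf4WT RT replicate 0 or 2 or Atf4WT cold replicate 0 or 1 (up to 0.0803), while in Atf4AKO it held in all fits. With only the 2 groups compared, the calls of Parp3 in Atf4AKO (0.0762) and Parp14 in Atf4WT (0.0506) were lost as well.

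**Figure D3:**
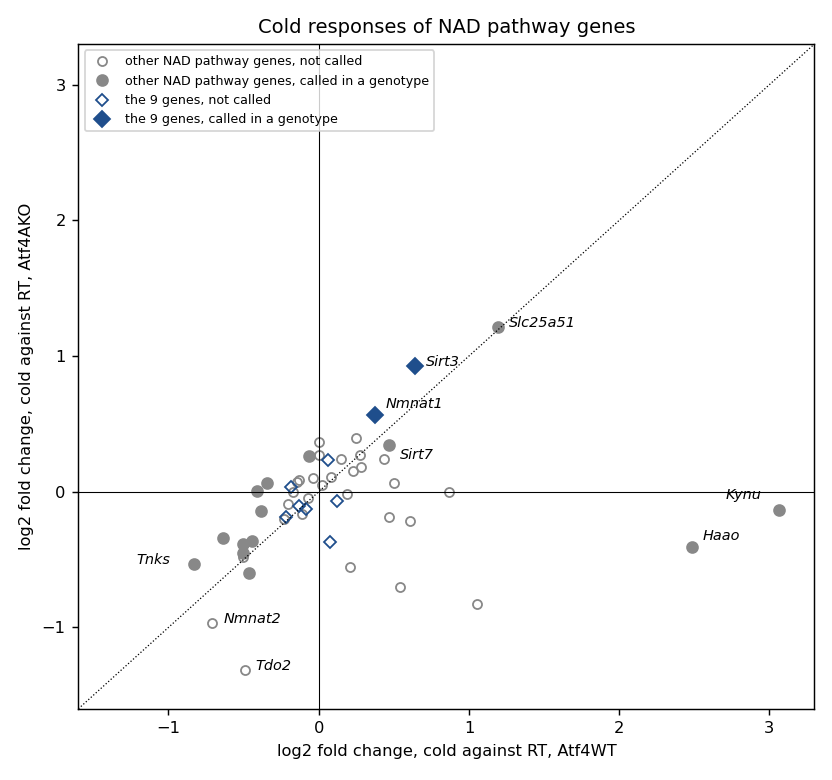
Log2 fold change with cold in Atf4WT (horizontal axis) against that in Atf4AKO (vertical axis) for the 9 genes (diamonds) and 43 other tested genes of NAD metabolism (circles), filled where the adjusted p was under 0.05 in at least 1 genotype; the dotted line marks equal changes. Slc25a51 and Sirt3 lie near the line at the upper right, and Kynu and Haao lie far to the right at 3.07 and 2.48 in Atf4WT but at -0.13 and -0.41 in Atf4AKO.

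In the route that makes NAD from tryptophan, 2 of 6 tested genes were called in Atf4WT with cold and none in Atf4AKO, beside 31.9% and 25.9% of all tested genes. Kynu, kynureninase, had 1.84, 0.96 and 26.9 normalized counts in Atf4WT at RT and 16.4, 48.6 and 105 after cold, and between 1.07 and 6.38 in all Atf4AKO libraries. Haao, which acts after it, had 13.8, 20.2 and 102 in Atf4WT at RT and 98.6, 213 and 263 after cold, and between 7.94 and 37.1 in Atf4AKO. Atf4WT RT replicate 2 overlapped the cold libraries for both genes. Kynu reached the minimum mean of 10 normalized counts only through Atf4WT cold, the group where it was high, since its mean over the other 9 libraries was 5.10. Its call in Atf4WT is therefore counted above but not read as a result, and its log2 differences of 3.07 with cold in Atf4WT and -3.82 between genotypes after cold are given as a description. Haao, with a mean of 29.7 over the same 9 libraries, rose with cold in Atf4WT by 2.48 ± 0.74 SE on the log2 scale (adjusted p = 0.0262, limma). That call was lost without any one of Atf4WT RT replicates 0 and 1 and Atf4WT cold replicates 1 and 2, with adjusted p up to 0.101, and by edgeR (0.0597). After cold, Haao differed between Atf4AKO and Atf4WT by -3.35 on the log2 scale without passing (adjusted p = 0.0703, limma), and it passed by DESeq2 (adjusted p = 0.000885) and in limma without Atf4WT RT replicate 2 (0.0284) or without Atf4WT cold replicate 0 (0.0302). Kmo, of the same route, differed there by -1.46 ± 0.41 SE, with groups that did not overlap, beside 16.5% of tested genes. It did not pass (adjusted p = 0.128, limma) and was called in 1 of 22 alternative fits. Kmo also passed the study's threshold, as did 6.4% of tested genes.

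The libraries with high Kynu and Haao were those with high B cell markers. All 11 listed B cell markers, of 14 in the list, were higher in Atf4WT cold than at RT. Of the 11, 10 were called, beside 17.0% of all tested genes called higher. Some of these markers may have reached the minimum mean of 10 only through Atf4WT cold, which was not checked, so their calls are a description. All 11 were lower in Atf4AKO than in Atf4WT after cold, with none called. The sum of 14 listed T cell markers was between 1162 and 8832 in Atf4WT cold and between 279 and 651 in Atf4AKO cold. At RT it was between 363 and 1000 in Atf4WT and between 474 and 1170 in Atf4AKO, so Atf4AKO RT overlapped Atf4WT cold. Each listed marker had at least 1 read in every library, and the B cell genes Ighm, Ighd and Fcer2a are not among the listed genes. The part of these cells in the values of Kynu, Haao and Kmo was not tested.

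**Figure D4:**
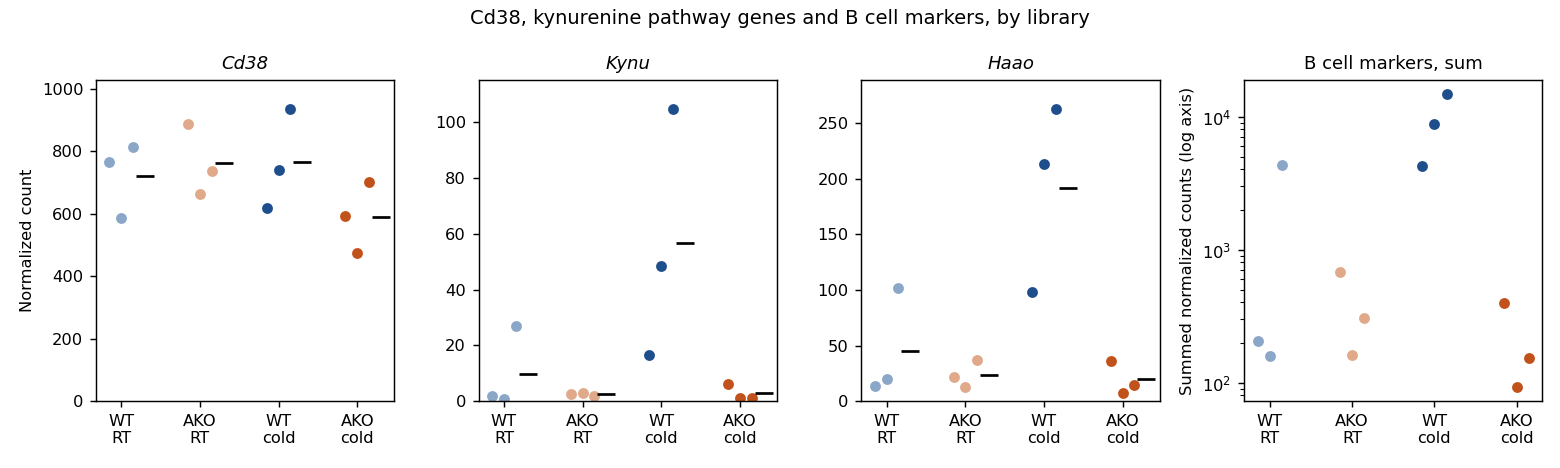
Normalized counts of Cd38, Kynu and Haao (axes from 0) and the summed normalized counts of 11 B cell markers (log axis) in each library, with the mean of each group of 3 as a short line for the 3 genes. The 3 Atf4WT cold libraries and Atf4WT RT replicate 2 hold the highest B cell sums (4235 to 14688) and the highest Haao values (98.6 to 263), while Cd38 in those libraries lies within the range of the rest but for its highest value of 935.

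Of the other lists, Nadk2, the mitochondrial NAD kinase, fell by 0.50 in Atf4WT and by 0.39 in Atf4AKO (adjusted p = 0.00943 and 0.0360, limma). The second call was lost without any one of 6 libraries, with an adjusted p of up to 0.110, and with only the 2 groups compared (0.108). Those libraries were Atf4WT RT replicates 0 and 1, Atf4AKO RT replicates 1 and 2 and Atf4AKO cold replicates 0 and 2. Pnp, which splits nicotinamide riboside, fell by 0.44 in Atf4WT, a call lost without Atf4WT RT replicate 0 or 1 or Atf4WT cold replicate 1 (adjusted p up to 0.0664, limma). Aox1, which oxidises methylated nicotinamide, fell by 0.41 in Atf4WT, a call lost without Atf4WT RT replicate 2 or Atf4WT cold replicate 2 (up to 0.0579). Nudt12, a hydrolase of NADH and of NAD-capped RNA, fell by 0.34 in Atf4WT, a call lost without Atf4WT RT replicate 0 or 1 or Atf4WT cold replicate 0 or 1 (up to 0.0833). It had 840, 839 and 878 normalized counts in Atf4WT cold and 1023, 1130 and 1309 in Atf4AKO cold, a log2 difference of 0.43 ± 0.10 SE that did not pass (adjusted p = 0.0720, limma) and that DESeq2 called (adjusted p = 0.00387). Nudt13, its mitochondrial relative, was called in Atf4AKO only (0.26, adjusted p = 0.0438, limma) and lost that call in 11 of 22 alternative fits, among them those without Atf4WT RT replicate 0, 1 or 2, Atf4AKO RT replicate 0 or 1, Atf4WT cold replicate 1 or Atf4AKO cold replicate 0 or 1 (adjusted p up to 0.153). The lists of ADP-ribose removal and of other NAD glycohydrolases, 2 tested genes each, held no call. Bst1, of the latter list, had 77.2, 56.8 and 103 normalized counts in Atf4WT at RT and 118, 171 and 205 after cold. In Atf4AKO it had 100, 58.7 and 77.0 at RT and 93.5, 7.94 and 98.9 after cold. Atf4WT cold thus overlapped neither Atf4WT RT nor Atf4AKO cold, beside 46.8% and 16.5% of tested genes. The part of immune cells in these values was not tested. Between genotypes after cold, none of the 43 was called in the main limma fit or by edgeR. Without Atf4WT RT replicate 2, limma called 2 of 43, beside 146 of 13383 tested genes. Without Atf4WT cold replicate 0 it called 2, beside 517 of 13400. DESeq2 called 4 (1 higher and 3 lower in Atf4AKO), beside 590 of 13404. Kynu, whose calls are not read as a result, was among those called in all of these fits. At RT, and for the difference of cold responses, limma, edgeR and DESeq2 called 0 of 43.

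Genes whose pattern was most like that of each of the 9 were named by the 3 highest values of Pearson's r of log2(normalized count + 1) over the 12 libraries, which share groups and tissue makeup, so that r is a description. Sirt3 was closest to Etfrf1 (r = 0.991), Mrps36 (0.991) and Sucla2 (0.984), which encode a regulator of the mitochondrial electron transfer flavoprotein, a mitochondrial protein first named for the ribosome, and a subunit of succinate-CoA ligase. On deviations from the group means, which leave out the shared rise with cold, these were still 0.982, 0.979 and 0.869. Nmnat1 was closest to Zfp598 (0.951), BC024978 (0.950) and Bckdhb (0.941), with 0.752, 0.708 and 0.724 within groups.

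For the genes that did not pass the test, likeness came from spread among libraries of a group. Nampt was closest to Fdft1 (0.869), a sterol synthesis enzyme, and Nnmt to Atp5j (0.949), a subunit of ATP synthase. Nmnat3 was closest to Gnb1l (0.887), Naprt to Tigd5 (0.948), Sirt1 to Acad10 (0.896) and Parp1 to D10Wsu102e (0.851). Cd38 was closest to Adar (0.932), Il4ra (0.927) and Tmem176a (0.925), of which Il4ra is a cytokine receptor subunit. Among the 9 genes themselves, the highest r was that of Nmnat1 and Sirt3 (0.86), which fell to 0.07 within groups, and the lowest that of Nnmt and Cd38 (-0.80), which was -0.76 within groups.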

How the data were processed

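Polyadenylated RNA from iWAT of 12 libraries (4 groups of 3) was sequenced with a strand-specific kit. The authors filtered reads with SOAPnuke, used STAR for alignment to mm10 and featureCounts for the counting of uniquely mapped reads per gene, and divided the counts by DESeq2 size factors. Versions of these tools and the strand setting are not given in the sources used here. The deposited values are this signal, normalized counts of 14159 genes, each with at least 1 read in every library. Whole reads were recovered for 100% of values (tolerance 0.01 reads), with 25719476 to 29105147 reads per library.

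The 13404 genes whose mean reached 10 were tested on log2(normalized count + 1) in limma 3.58.1 (R 4.3.3), with the prior variance following mean expression, fitted over all 4 groups without covariates. The pseudocount of 1 understates changes of low genes such as Kynu. The p-values were adjusted by Benjamini-Hochberg over all tested genes, and intervals are at 95%. The members Nampt, Nnmt, Nmnat1, Nmnat3, Naprt, Sirt1, Sirt3, Parp1 and Cd38, the pathway and marker lists, and the rules for named genes (genes called in a list, and the 3 nearest by Pearson's r) were chosen with earlier results of these data known. Motifs were searched in RefSeq promoter windows. The scripts were tested on simulated data. Alternatives were a pseudocount of 0.5 or 5, no filter, a mean of at least 50, only the 2 groups compared, a common 75th percentile, array weights, a replicate block, edgeR 4.0.16 and DESeq2 1.42.0 on the recovered reads, and each library left out in turn. Figures were drawn with matplotlib 3.10.9.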

Additional observations from a re-analysis of the deposited data

How the results depend on the processing

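Over 22 alternative fits of each comparison (21 of the difference of cold responses), the 2 called genes in Atf4AKO with cold and the counts of 0 in the other comparisons did not change, apart from the study's threshold, which passed 1 of the 9 genes (Sirt3) in each genotype with cold. In Atf4WT the count with cold was 1 to 2 when single libraries were left out, because the call of Nmnat1 was lost. No gene of the 9 outside those calls was called in any alternative, the lowest adjusted p being 0.0901. Replicate numbers did not meet the bar for pairing, a correlation of deviations over 0.1 in every same-numbered pair: 9 of 18 pairs were over it (range -0.19 to 0.39), of which 6 of 6 for replicate 1 (0.18 to 0.39), 1 of 6 for replicate 0 and 2 of 6 for replicate 2. Of 12 libraries, 4 correlated best with their own number in every other group. With a replicate block 2, 2, 0, 0 and 0 members were called, as in the fit without it, while over all genes the block gave 4858, 4129, 189, 3 and 0 calls in place of 4273, 3467, 4, 1 and 0, and Haao was called between genotypes after cold (adjusted p = 0.0462, limma with the block). Over all genes after cold, Atf4AKO against Atf4WT gave 590 calls by DESeq2, 3 by edgeR, and 0 with only the 2 groups compared.

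Signs changed for 14 of the members' 45 log2 values, each at most 0.11 in size; the cause was not tested. For Nampt, cold in Atf4AKO was -0.029 with a common 75th percentile and -0.00091 by DESeq2, and Atf4AKO against Atf4WT at RT was 0.030 with array weights, 0.00011 by edgeR and 0.0076 by DESeq2. The difference of cold responses was 0.052 for Nmnat3 with array weights, and with a common 75th percentile -0.00092 for Naprt and -0.0056 for Sirt1, for which Atf4AKO against Atf4WT after cold was -0.020. Without single libraries, cold in Atf4WT ranged from -0.10 to 0.19 for Nnmt, from -0.25 to 0.048 for Nmnat3 and from -0.078 to 0.22 for Cd38. Cold in Atf4AKO ranged from -0.11 to 0.26 for Nampt and from -0.12 to 0.011 for Parp1. At RT the genotype difference ranged from -0.24 to 0.14 for Nampt, -0.028 to 0.19 for Nnmt, -0.086 to 0.076 for Sirt1, -0.047 to 0.084 for Parp1 and -0.061 to 0.18 for Cd38. After cold it ranged from -0.033 to 0.11 for Sirt1. The difference of cold responses ranged from -0.17 to 0.13 for Nmnat3, -0.060 to 0.13 for Naprt and -0.051 to 0.11 for Sirt1.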
